A study of Mus musculus with 12 samples.

Results

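miR-132 and miR-212 are 2 microRNAs (miRNAs) cut from neighbouring hairpins of 1 transcript, and they are described here in 12 small RNA libraries from the mouse hippocampus. They were found by matching every sequence tag of the libraries over its full length to the annotated Mir132 and Mir212 hairpins, which makes them 2 of the 705 miRNA names with at least 1 count. Each library came from an individual adult male C57BL/6 mouse (strain C57BL/6NCrl), with no transgene or allele named for any group. A pair of mice was untreated (NT), and pairs were taken 0.5 h, 1 h, 3 h, 6 h and 24 h after an electroconvulsive shock (ECS), a brief current that makes the neurons of the brain fire together. The replicate number marks the time course, so that time course 1 and time course 2 each hold 6 libraries, 1 from NT and 1 from each time after ECS. For NT the sources differ on which library has which number, and the deposited label was used. The whole hippocampus was used, and in such bulk samples fewer cells of a type and less RNA per cell cannot be told apart.

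The first cut of a primary transcript by the nuclear enzyme Drosha frees a hairpin, and the cytoplasmic enzyme Dicer then removes the loop and leaves a duplex of a 5p and a 3p arm. 1 arm, or either, is loaded into an Argonaute protein, where the bases after its first nucleotide, the seed, choose the messenger RNAs to be repressed. The miR-132 and miR-212 cluster is known as a target of CREB, the transcription factor that calcium and cAMP signals switch on in active neurons, and miR-132 is known for its part in the growth of dendrites and in synaptic plasticity, through targets such as the GTPase-activating protein p250GAP. CREB itself was not measured in these libraries.

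Both hairpins lie on the plus strand of mouse chromosome 11 (GRCm38). The 91 nt Mir212 hairpin runs from 75173388 to 75173478 and the 66 nt Mir132 hairpin from 75173682 to 75173747, with 203 bases between them. Both are inside intron 1 (75172598 to 75173977) of the non-coding gene 1700016P03Rik, which has 3 exons and spans 75172560 to 75177633. The mature sequences below, from RefSeq (GRCm38.p6), show which arms share a seed. The seed, bases 2 to 8, is in capitals.
miR-132-5p: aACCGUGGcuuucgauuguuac
miR-212-5p: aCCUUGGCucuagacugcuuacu
miR-132-3p: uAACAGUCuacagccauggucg
miR-212-3p: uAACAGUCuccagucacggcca

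The 3p arms carry the same seed, and no other of the 1679 RefSeq mature mouse miRNAs has it. Over 22 positions the 3p arms were identical at 17, the first 9 among them. Counted from 1 at the 5′ end, with miR-132-3p first, they differ as A10C, C14U, U17C, U20C and G22A. The seed of each 5p arm was found in no other mature miRNA. No tag of the family had to be divided between miRNAs: none of its 61798 counts also matched another miRNA hairpin.

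Before the levels are given, some libraries stand apart. Time course 1 held 439336 to 2219779 miRNA counts in a library and time course 2 1321437 to 4282006. The shallowest library for miRNAs was the 6 h library of time course 1, in which 10.1% of the 4362854 accepted reads were miRNAs. In total reads it was the 6 h library of time course 2, with 1897490. The NT library of time course 1 had short tags: 88.3% of its miR-132 5p counts and 44.1% of its miR-212 5p counts were 18 or 19 nt long, against 16.1% to 51.1% and 5.76% to 14.2% in the other libraries of that time course and at most 7.69% and 2.17% in time course 2. Neuronal miRNAs (miR-124 3p, miR-9 5p and miR-128 3p) together took 5.69% to 30.3% of miRNA counts, oligodendrocyte miRNAs 0.273% to 1.82%, vessel miRNAs 0.565% to 14.5%, muscle miRNAs 0.258% to 1.69%, myeloid miRNAs 0.0158% to 0.979%, blood miRNAs 0.0168% to 0.199%, and the liver miRNA miR-122 0.000910% to 0.0321%. All of the markers of these cell types had counts.

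Levels are given as the percent of all exact miRNA counts in a library. The study states that library construction biases how often a small RNA is cloned. Comparisons between different sequences here are therefore of counts, not of molecules in the tissue. The product of the cluster with the most counts was the 5p arm of miR-212. It held 53418 of the counts and ranked 63rd by mean level among 1117 arms and loops with a count, between miR-320 3p (mean 0.137%) and miR-330 3p (0.131%). In time course 1 miR-212 5p was 0.0404% in NT and then 0.0737%, 0.0828%, 0.0272%, 0.0915% and 0.0578% at the times after ECS in their order. In time course 2 it was 0.124% in NT and then 0.197%, 0.375%, 0.323%, 0.0453% and 0.166%. The 1 h library was the highest of time course 2 and the second highest of time course 1, and the 6 h library was the highest of one time course and the lowest of the other. Except for that 6 h library, each library of time course 2 lay above each of time course 1.

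The 5p arm of miR-132 came next, with 4926 counts and rank 139, between miR-3473e 5p (mean 0.0208%) and miR-29b 3p (0.0197%). It was 0.0402% in NT of time course 1 and 0.0218%, 0.0412%, 0.0157%, 0.0298% and 0.0165% at the times after ECS in their order. The second time course had 0.0113% in NT and then 0.0107%, 0.0189%, 0.0175%, 0.0108% and 0.00755%. The 1 h library was the highest of both time courses, by a small margin over NT in time course 1, where 95% Wilson intervals of the 1 h value (0.0379% to 0.0448%) and of NT (0.0366% to 0.0442%) overlapped. These intervals cover counting error only, since reads without molecular identifiers are not independent molecules.

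The 3p arm of miR-132, the arm that most studies of miR-132 follow, held 2028 counts and rank 198, between miR-376c 3p (mean 0.00699%) and miR-411 3p (0.00690%). Its levels were the most even of the arms. They were 0.00637% in NT and 0.00758%, 0.00933%, 0.00313%, 0.00774% and 0.00874% after ECS in time course 1. Time course 2 had 0.00666% in NT and 0.00688%, 0.00517%, 0.00540%, 0.00810% and 0.00823% after ECS. The highest library was 2.98 times the lowest, compared with 13.8 times for miR-212 5p, 6.38 times for miR-212 3p and 5.46 times for miR-132 5p. The 1 h library was the highest of time course 1 and the lowest of time course 2.

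The 3p arm of miR-212 had the fewest counts of the arms, 1190, and rank 235, between miR-375 3p (mean 0.00390%) and miR-135a 5p (0.00369%). In time course 1 it stood at 0.00871% in NT, which rests on 93 counts, and at 0.00217%, 0.00375%, 0.00147%, 0.00137% and 0.00261% after ECS. In time course 2 it stood at 0.00430% in NT and at 0.00567%, 0.00268%, 0.00263%, 0.00431% and 0.00599% after ECS. The NT library of time course 1 was thus above every other, while in time course 2 NT lay between the times after ECS. The 6 h value of time course 1 comes from 6 counts.

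**Figure D1:**
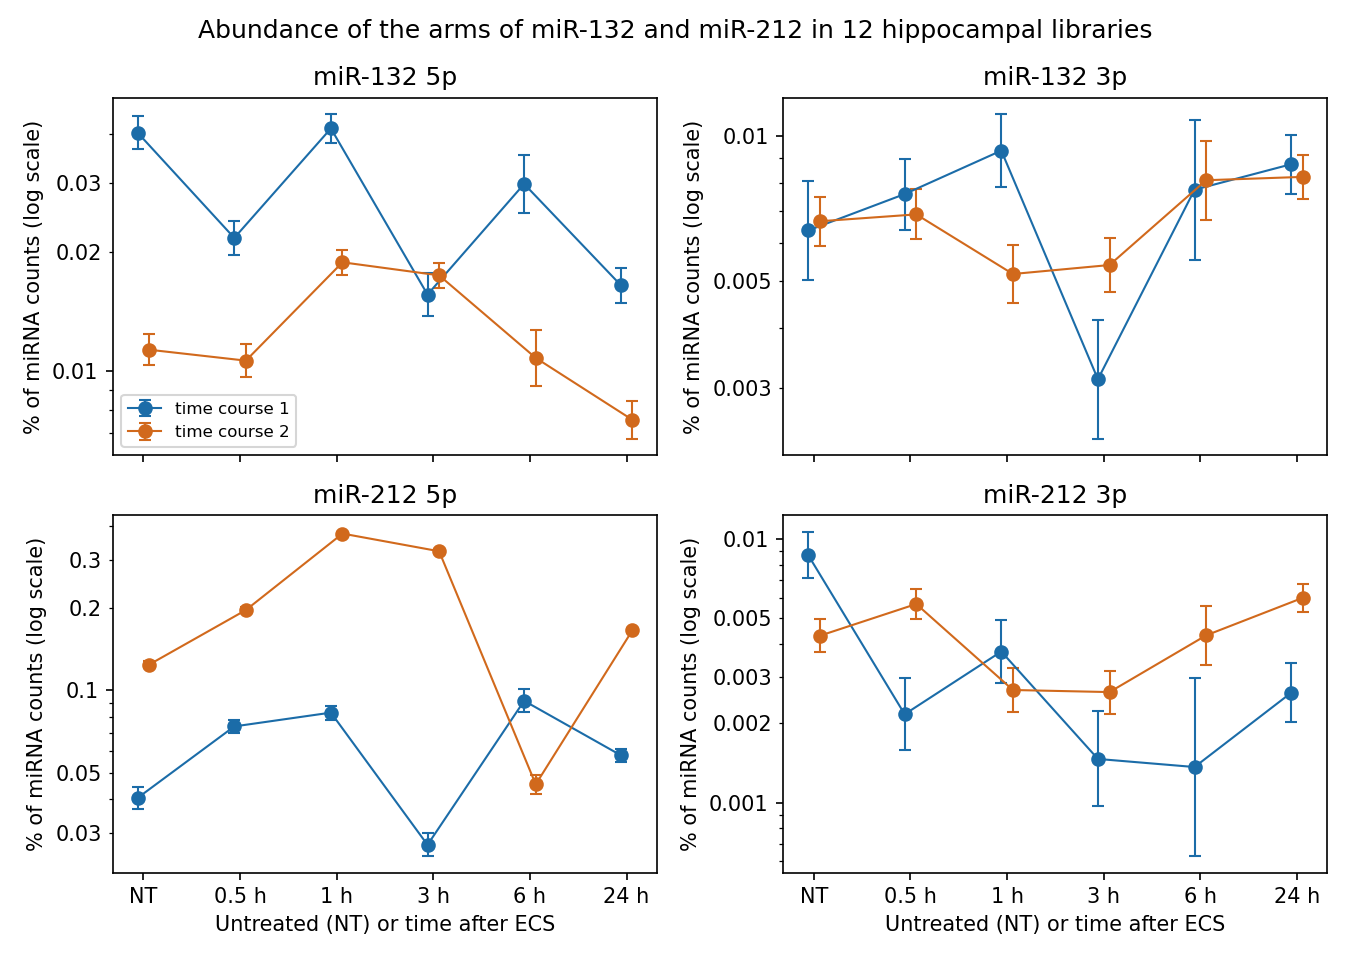
Percent of exact miRNA counts (log axis) of the 4 arms in each of the 12 libraries, in the order NT, then the times after ECS (equally spaced), with 95% Wilson intervals, 1 point per library. miR-212 5p reaches 0.375% at 1 h in time course 2 and falls to 0.0453% at 6 h there, while miR-132 3p stays between 0.00313% and 0.00933%.

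The order of the arms was steadier than their levels. miR-212 5p was above each other arm in 12 of 12 libraries, and miR-132 5p was above miR-132 3p in 11 and above miR-212 3p in 12. miR-132 3p was above miR-212 3p in 11 of 12 libraries, the exception being NT of time course 1. The 3p arms lay closest to each other (miR-132 3p 0.00715% ± 0.00222 and miR-212 3p 0.00334% ± 0.00277, SD, n = 6, in time course 1, and 0.00674% ± 0.00129 and 0.00426% ± 0.00142 in time course 2). miR-212 5p (0.0622% ± 0.0251 and 0.205% ± 0.124) and miR-132 5p (0.0275% ± 0.0114 and 0.0128% ± 0.00442) were farther apart.

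The design asks which miRNAs change after ECS. The quasi-likelihood test of edgeR was run over the 475 arms and loops that reached 10 counts in 2 or more libraries, with p-values adjusted by Benjamini and Hochberg. It called none (0% of 475) at any time after ECS against NT, with all times after ECS together against NT, or at 6 and 24 h against 0.5 and 1 h. At an unadjusted p under 0.05 there were 8, 2, 10, 12 and 8 (1.68%, 0.421%, 2.11%, 2.53% and 1.68%) at the 5 times in their order, 24 (5.05%) for all times together, and 4 (0.842%) for late against early times. DESeq2 called 1 at 0.5 h, 2 at 3 h, 1 for all times together and 1 for late against early times, none of them an arm of miR-132 or miR-212, and 0 elsewhere. None of the arms of miR-132 or miR-212 was among those with a p under 0.05. The smallest unadjusted p of an arm in these comparisons was 0.336 by edgeR, and the adjusted p ran from 0.985 to 0.999. This fit did not account for the time course. With the time course as a term, edgeR again called 0, and 30, 11, 26, 39 and 28 of the 475 had an unadjusted p under 0.05 at the 5 times. No arm of miR-132 or miR-212 was among them. The smallest unadjusted edgeR p of an arm was then 0.121, and the adjusted p ran from 0.676 to 0.997. The comparisons with NT share the same 2 NT libraries, which include the one with short tags.

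By size, the 5p arm of miR-212 had the largest change of the arms at 1 h, with a log2 fold change of 1.35 ± 1.42 (SE, edgeR adjusted p = 0.999). miR-212 3p had -1.03 ± 1.10, miR-132 5p 0.24 ± 0.88 and miR-132 3p -0.06 ± 0.89. Averaged over the times after ECS, the log2 fold changes against NT were 0.67 ± 1.14 for miR-212 5p, -0.68 ± 0.80 for miR-212 3p, -0.25 ± 0.67 for miR-132 5p and 0.16 ± 0.70 for miR-132 3p. Between late (6 and 24 h) and early (0.5 and 1 h) times they were -0.93 ± 1.00, 0.38 ± 0.77, -0.39 ± 0.62 and 0.45 ± 0.63 in the same order of arms. In this fit, without the time course as a term, the standard errors were near or above the changes, so that changes of this size were not detectable in it. With that term the changes at 1 h were 1.26 ± 0.86 for miR-212 5p, -1.10 ± 0.81 for miR-212 3p, 0.28 ± 0.70 for miR-132 5p and 0.05 ± 0.69 for miR-132 3p. Averaged over the times after ECS they were 0.82 ± 0.70, -0.99 ± 0.59, -0.20 ± 0.54 and 0.20 ± 0.54 in the same order, none of them called. Without that term, miR-212 3p at 1 h kept its direction when any 1 library was left out (-1.40 to -0.99). For the other arms the direction at 1 h rested on single libraries. miR-212 5p had -0.89 without the 1 h library of time course 2, miR-132 5p had -0.15 without NT of time course 2, and miR-132 3p had 0.48 without that NT library.

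More arms were called between the time courses than between the times, but the tests are unlike. The time courses were compared as 6 libraries against 6, and each single time with NT as a pair against a pair. The numbers of calls are therefore not a measure of how large the differences were. The study describes a pronounced batch effect between its time courses and could not tell library construction from sequencing as its source. It held an accurate reading of expression changes from these sequencing data to be unlikely. The source of the differences given here was not tested. With the time point as a term, edgeR called 157 of 475 arms and loops (33.1%), 99 higher (20.8%) and 58 lower (12.2%) in time course 2. The split depends on the scaling: scaled to the total miRNA count alone, 51 were higher and 117 lower, and the median log2 fold change of all 475 moved from 0.29 to -0.32. miR-212 5p was among the higher ones, with a log2 fold change of 2.22 ± 0.54 (edgeR adjusted p = 0.0084), and it was called in 12 of 12 fits that left out 1 library and with the total scaling (1.59 ± 0.58, edgeR adjusted p = 0.0410). The other arms were not called: miR-212 3p had 1.20 ± 0.49 (edgeR adjusted p = 0.0724), miR-132 3p 0.61 ± 0.41 (0.248) and miR-132 5p -0.43 ± 0.41 (0.420). With the total scaling they were not called either, at 0.59 ± 0.53 (edgeR adjusted p = 0.397), -0.03 ± 0.47 (0.973) and -1.08 ± 0.49 (0.0927) in the same order. The call of miR-212 3p depended on the setting. It was called by DESeq2 (adjusted p = 0.0491) and with tags matched by their first 18 nt (edgeR adjusted p = 0.0402). Of 12 fits that left out 1 library it was called in 2, those without either NT library (edgeR adjusted p = 0.0429 without NT of time course 1 and 0.0414 without NT of time course 2). In the 12 fits its edgeR adjusted p went up to 0.233.

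**Figure D2:**
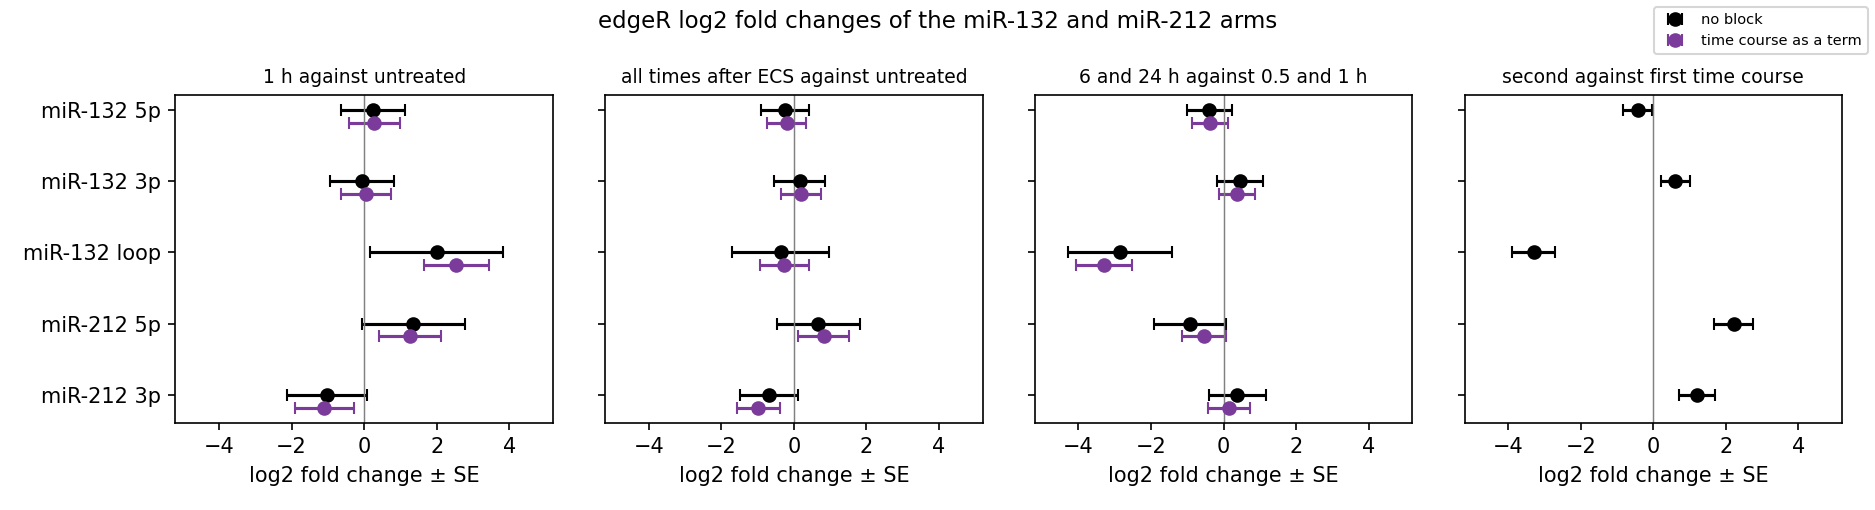
edgeR log2 fold changes (points) with their standard errors (bars) of the 4 arms and the miR-132 loop in 4 comparisons, without a block (black) and with the time course as a term (purple). Without the block the arms sit within about 1 SE of 0 after ECS (with it, miR-212 3p over all times is at -0.99 with an SE of 0.59), while between the time courses miR-212 5p is at 2.22 and the miR-132 loop at -3.30.

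The ratio of the 2 miRNAs also went with the time course. miR-212 counts (5p and 3p) were 1.05, 2.59, 1.71, 1.52, 2.47 and 2.39 times those of miR-132 in time course 1, from NT to 24 h. In time course 2 they were 7.14, 11.5, 15.7, 14.2, 2.62 and 10.9 times. All ratios were above 1, and each library of time course 2 was above its partner, by as little as 2.62 against 2.47 at 6 h. The mean difference was 2.27 on the log2 scale, with an exact permutation p of 0.0312 (64 sign flips of the 6 pairs, two-sided), the smallest that these flips can give, and 0.0677 after adjustment over 13 values tested in the same way.

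The counts of the arms were very unequal for miR-212 and less so for miR-132. Over the 12 libraries there were 44.9 miR-212 5p counts for each miR-212 3p count, and 2.43 miR-132 5p counts for each miR-132 3p count. In single libraries these ratios ran from 4.63 to 140 for miR-212 and from 0.917 to 6.31 for miR-132. The 5p share of miR-132 counts was 86.3%, 74.2%, 81.5%, 83.3%, 79.4% and 65.4% in time course 1, from NT to 24 h, and 63.0%, 60.8%, 78.5%, 76.4%, 57.2% and 47.8% in time course 2. The 24 h library had the lowest share of both time courses, and in time course 2 it was the only one of the 12 libraries with more 3p (338) than 5p (310) counts. Its 95% Wilson interval, 44.0% to 51.7%, includes an equal share.

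The share in time course 2 was below that of the partner library in 6 of 6 pairs, a mean difference of -14.4 percentage points (exact permutation p = 0.0312, adjusted p = 0.0677). With tags of at least 20 nt alone that difference was -3.92 points (exact permutation p = 0.312). The 5p share of miR-212 was 82.3% in NT of time course 1 and 94.9% to 98.5% in its other libraries, and 91.3% to 99.3% in time course 2. Between NT and the times after ECS none of the 13 values passed the test: the smallest of their exact permutation p-values was 0.0833 (36 arrangements, two-sided, adjusted p = 0.361), where 0.0278 is the smallest possible. Neither this test nor the sign flips could bring 1 value alone under 0.05 after adjustment over the 13.

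**Figure D3:**
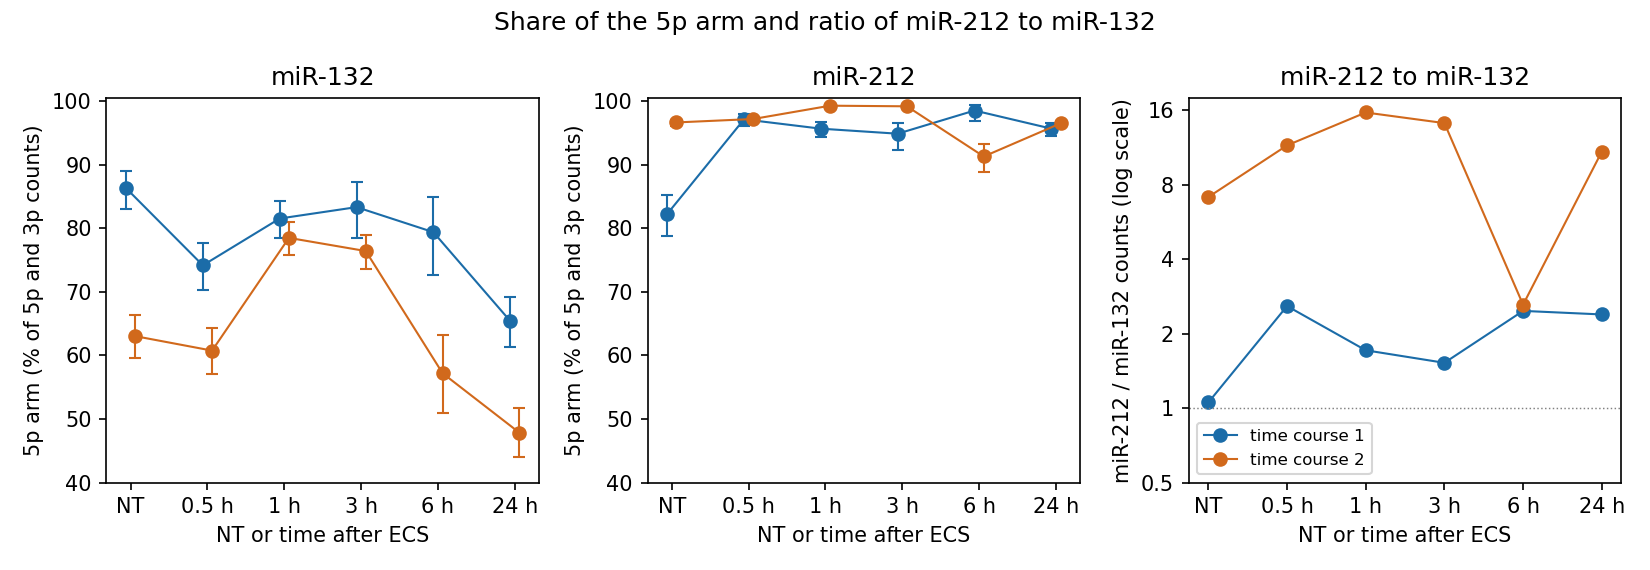
5p counts as a percent of 5p and 3p counts of miR-132 (left) and miR-212 (middle) with 95% Wilson intervals, and the ratio of miR-212 to miR-132 counts (right, log axis) in each library (time points equally spaced). The miR-132 share ends at 65.4% and 47.8% at 24 h, and the ratio is 1.05 to 2.59 in time course 1 and 2.62 to 15.7 in time course 2.

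The leading tags are printed here because their first base sets the seed. Positions are counted from 1 at the 5′ end of the hairpin, and bases 2 to 8 of each tag are in capitals.
miR-132 5p, start 6: aCCGTGGCtttcgattgtta
miR-132 5p, start 5: aACCGTGGctttcgattgtt
miR-132 3p, start 42: tAACAGTCtacagccatggt
miR-132 3p, start 43: aACAGTCTacagccatggtc
miR-212 5p, start 16: aCCTTGGCtctagactgcttact
miR-212 3p, start 56: tAACAGTCtccagtcacggc

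The leading tags of miR-132 5p did not begin where the RefSeq sequence does. RefSeq starts at position 5, and 31.4% of the 4926 counts did so, while 68.4% began at position 6. Tags from position 6 carry the seed CCGUGGC, which is the seed of none of the 1679 RefSeq mature miRNAs. Of the 2028 miR-132 3p counts 1298 began at the RefSeq start, position 42, 26.4% at 43 and 9.62% at 44. miR-212 tags began at fewer positions: 96.5% of its 5p counts began at position 16 and 97.6% of its 3p counts at position 56, both as in RefSeq.

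The starts of miR-132 tags differed between the time courses. At position 6 began 67.4%, 68.1%, 49.4%, 53.2%, 40.5% and 55.3% of miR-132 5p counts in time course 1 and 73.3%, 81.4%, 81.5%, 72.9%, 56.6% and 81.6% in time course 2. For miR-132 3p the share at position 42 was 17.6% (of 34 counts, at 6 h) to 55.6% in time course 1 and 64.6% to 76.9% in time course 2, so that these groups did not overlap. The share was higher in time course 2 in 6 of 6 pairs for both arms, by 18.9 and 33.0 percentage points on average (exact permutation p = 0.0312 for each, adjusted p = 0.0677).

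Tag lengths also differed between the time courses, for the 5p arms in each pair. The mean length of miR-212 5p tags was 19.9 to 21.0 nt in time course 1 and 21.7 to 22.5 nt in time course 2, a mean difference of 1.78 nt with 6 of 6 pairs longer in time course 2 (exact permutation p = 0.0312, adjusted p = 0.0677). The full 23 nt form made up 0.746% to 15.5% of miR-212 5p counts in time course 1 and 40.1% to 71.3% in time course 2. miR-132 5p tags were 19.1 to 20.5 nt and 20.4 to 20.8 nt long on average, longer in time course 2 in 6 of 6 pairs (0.851 nt, exact permutation p = 0.0312, adjusted p = 0.0677). For miR-132 3p the mean lengths differed by 0.0381 nt (exact permutation p = 0.75). For miR-212 3p they differed by 0.619 nt, longer in time course 2 in 5 of 6 pairs (exact permutation p = 0.0625, adjusted p = 0.0903). Longer tags were general in time course 2. Over 190 hairpin arms (tags of 1 hairpin only, each library holding 10 or more), 107 (56.3%) had mean lengths above those of time course 1 without overlap, and 154 were longer in 6 of 6 pairs. The share of the leading start was above time course 1 without overlap in 10 of the 190 (5.26%), miR-132 3p among them, and higher in 6 of 6 pairs in 18. This count over all arms was added after the values had been seen. The part of tag length in the miR-212 5p level was not tested.

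**Figure D4:**
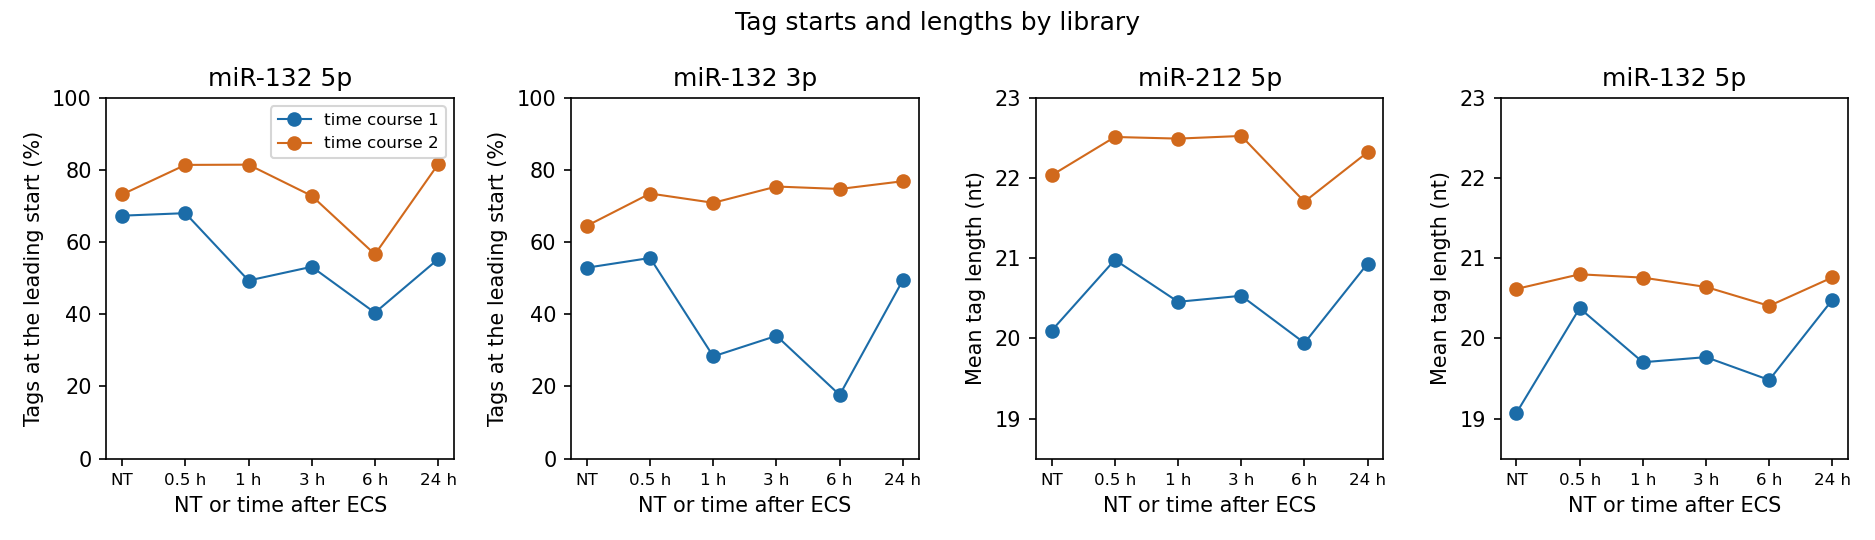
Share of miR-132 5p counts at position 6 and of miR-132 3p counts at position 42 of the hairpin (left panels, %), and mean tag length of miR-212 5p and miR-132 5p (right panels, nt), 1 point per library, time points equally spaced. Each point of time course 2 lies above its partner in time course 1, and for miR-132 3p starts and miR-212 5p length the time courses do not overlap.

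Tags whose first 18 nt matched but whose 3′ end did not were commoner on the 3p arms when the libraries were pooled. They made up 39.0% of the 3326 miR-132 3p counts and 43.0% of the 2088 miR-212 3p counts found in this way, compared with 19.6% of 6124 for miR-132 5p and 9.11% of 58769 for miR-212 5p. By library the shares overlapped, at 12.8% to 46.5%, 0% to 54.4%, 11.7% to 30.3% and 3.79% to 15.9% in the same order of arms. The 0% is from the 6 h library of time course 1, with 6 counts, so the order did not hold in each library. A single unmatched T was the most frequent of the 1-base ends of miR-132 3p, with 493 counts against 62 for A, 42 for G and 12 for C. For miR-212 3p it was 253 for T, 182 for A, 15 for G and 4 for C. T also led on the 5p arms, with 348 against 92 for A (miR-132) and 742 against 532 for A (miR-212). Enzymes that add U or A to the 3′ end of mature miRNAs are known, and whether these ends are such additions was not tested.

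Another kind of product came from between the arms of miR-132. Below is the hairpin with the leading loop tag in capitals, which shows that the tag covers the 15 nt between the RefSeq arms, the last base of miR-132-5p and the first 2 bases of miR-132-3p.
miR-132 hairpin: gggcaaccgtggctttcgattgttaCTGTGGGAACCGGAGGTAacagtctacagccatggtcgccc

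This tag is 18 nt long, the shortest length in the files, spans positions 26 to 43 and ends next to the 3p tags that begin at 44, while it overlaps those that begin at 42 and 43. It gave 225 of the 236 loop counts, and among 141767 annotated transcripts only the Mir132 hairpin holds it. The miR-132 loop ranked 3rd among 59 miRNA loops with a count, after miR-218 (1445 counts) and miR-708 (454), and the miR-212 loop had 0 counts. The miR-132 loop was singled out after its values had been seen.

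Loop counts were 22, 19, 96, 35, 3 and 7 from NT to 24 h in time course 1 and 4, 4, 39, 7, 0 and 0 in time course 2. As a share of all miR-132 counts (5p, 3p and loop) they were 4.24%, 3.56%, 12.2%, 1.79% and 1.23% in time course 1 in NT and at 0.5, 1, 6 and 24 h, and 35 of 317 at 3 h. In time course 2 they were 0.516%, 0.582%, 3.97% and 0.731% up to 3 h, then 0 of 250 counts at 6 h, which allows up to 1.2%, and 0 of 648 at 24 h, which allows up to 0.463%. The 1 h library was thus the highest and the 24 h library the lowest, or tied for it, of both time courses. The 95% Wilson interval of the 1 h share, 2.92% to 5.38%, lay above those of all the other libraries in time course 2, while in time course 1 the interval at 1 h (10.1% to 14.7%) overlapped that at 3 h (8.05% to 15.0%).

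Against NT the loop had an edgeR log2 fold change at 1 h of 1.99 ± 1.84 (adjusted p = 0.999). Between late and early times it was -2.86 ± 1.43 (edgeR adjusted p = 0.996). With the time course as a term in the fit, which removes the difference between the courses, these were 2.54 ± 0.90 (edgeR adjusted p = 0.997) and -3.29 ± 0.77 (edgeR adjusted p = 0.419). In that fit 11 (2.32%) of the 475 arms and loops had an unadjusted p under 0.05 at 1 h and 16 (3.37%) between late and early times, the loop among both, and neither change passed the adjustment over all of them. Leaving out 1 library at a time gave 1.43 to 3.23 at 1 h and -4.53 to -2.65 between late and early times. The lowest value at 1 h, 1.43, came without the 1 h library of time course 2 (edgeR adjusted p = 0.997).

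Between the time courses the loop was lower in the second, with a log2 fold change of -3.30 ± 0.59 (edgeR adjusted p = 0.00232), and it was called in 12 of 12 fits that left out 1 library. The other 58 loops together stood at 362, 168, 139, 43.3, 137 and 138 CPM (counts scaled to 1000000 miRNA counts) in time course 1 and 60.3, 60.8, 138, 54.5, 38.6 and 41.4 in time course 2. The miR-132 loop stood at 20.6, 10.8, 70.5, 23.3, 6.83 and 3.15 CPM in time course 1 and 0.934, 1.03, 9.94, 1.69, 0 and 0 CPM in time course 2, with up to 2.27 and 0.730 allowed by the counts of 0. The other loops were thus also highest at 1 h in time course 2, but highest in NT of time course 1. The peak in time course 2 came from the miR-218 loop, which gave 396 of the 542 counts at 1 h. Without it the other loops were highest at 0.5 h in that time course (44.9 CPM, and 37.2 at 1 h). Of the 20 loops with at least 10 counts, 2 were highest at 1 h in both time courses, those of miR-132 and miR-129.

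**Figure D5:**
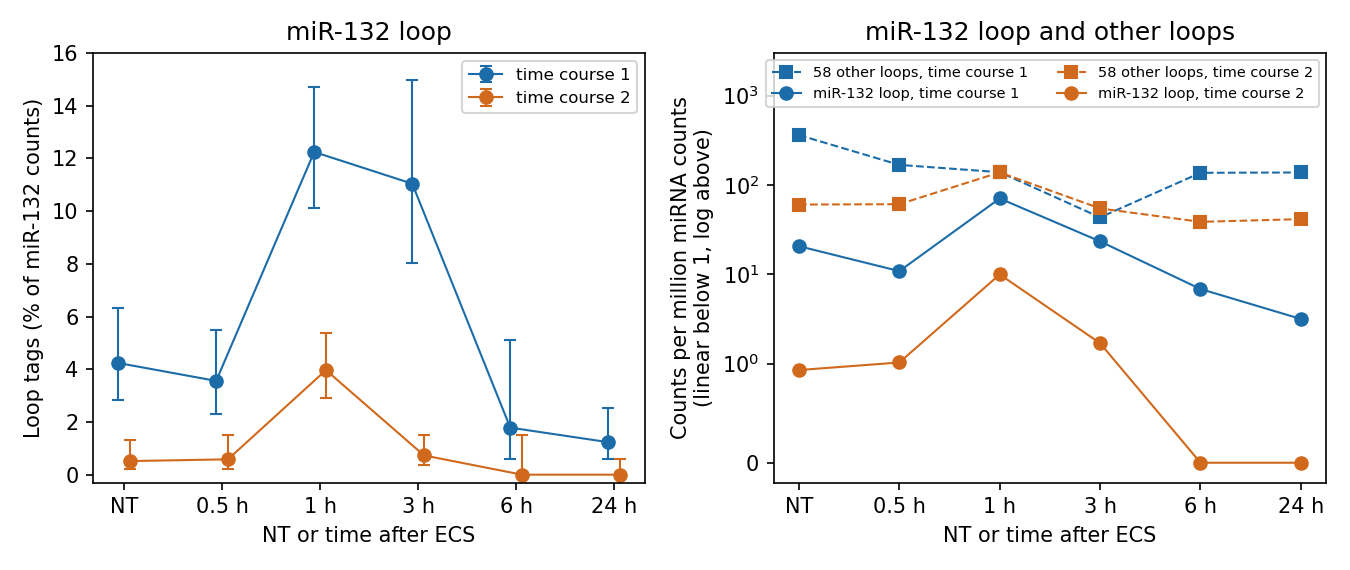
Left, loop tags as a percent of miR-132 counts with 95% Wilson intervals. Right, CPM of the miR-132 loop (circles) and of the other 58 loops together (squares), on an axis that is linear below 1 and logarithmic above. The miR-132 loop is highest at 1 h in both time courses, at 12.2% and 3.97% of miR-132 counts.

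Whether the arms, cut from 1 transcript, went up and down together was asked within each time course. Over 6 libraries, on log2 percents, miR-132 5p and miR-212 5p had Pearson's r of 0.41 in time course 1 and 0.57 in time course 2 (exact permutation p = 0.382 and 0.256, Spearman's rho 0.54 in both, exact permutation p = 0.297), and without the 2 libraries farthest from the median r was -0.33 and -0.36. The 3p arms, which share a seed, had r of 0.28 and 0.86 (exact permutation p = 0.542 and 0.0264, adjusted over 12 correlations 0.591 and 0.0792, rho 0.20 and 0.89, exact permutation p = 0.714 and 0.0333), and without the 2 farthest libraries -0.72 and 0.22. Neither relation held in both time courses.

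Within time course 2, miR-132 5p went against miR-132 3p (r = -0.94, rho = -0.94) and against miR-212 3p (r = -0.95, rho = -0.94), each with an exact permutation p of 0.0042 for r and 0.0167 for rho, adjusted to 0.025 and 0.1. Without the 2 farthest libraries these r were -0.66 and -0.74. In time course 1 the same pairs had r of 0.46 and 0.63 (exact permutation p = 0.385 and 0.190, adjusted p = 0.462 and 0.381). The difference between the time courses was not tested, and all of these levels share the total of their library. With TMM-normalized CPM the r of time course 2 were -0.68 and -0.93, with adjusted exact permutation p of 0.412 and 0.117, and with tags matched by their first 18 nt -0.88 and -0.97 (adjusted exact permutation p of 0.112 and 0.0667). miR-132 3p and miR-212 5p had r of 0.86 in time course 1 and -0.80 in time course 2 (exact permutation p = 0.0222 and 0.0444, adjusted p = 0.0792 and 0.107, rho 0.71 and -0.71, exact permutation p = 0.136 for each). Without the 2 farthest libraries these were 0.53 and -0.43.

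As a description of which miRNAs followed the leading arms, the mean of the r within each time course was taken over the 212 other arms that reached 10 counts in all libraries. The arms most like miR-212 5p were miR-433 3p (mean r 0.92), miR-25 3p (0.90), miR-541 5p (0.90), miR-873a 3p (0.89) and miR-382 5p (0.84). miR-132 5p was 52nd on that list, with 0.49. The arms most like miR-132 5p were miR-106b 3p (0.82), miR-203 3p (0.76), miR-370 5p (0.75), miR-1983 3p (0.75) and miR-186 5p (0.70), with miR-212 5p in place 34 and miR-132 3p in place 191. These rest on 6 libraries in each time course, which share a total count.

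Of 28 miRNAs linked to neuronal activity or common in brain, these 2 included, 26 could be tested, with 46 arms. After ECS none of the 46 passed the adjusted threshold by edgeR, up or down, at any time, beside 0% of all 475. Their median log2 fold change at 1 h was 0.16, beside 0.12 over all 475, and over all times after ECS 0.10 beside -0.04. miR-134 5p, a dendritic miRNA that limits spine size, had a log2 fold change of -0.70 ± 1.00 over all times after ECS (edgeR adjusted p = 0.998), and miR-124 3p, the main neuronal miRNA, -1.20 ± 0.78 (edgeR adjusted p = 0.998).

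Between the time courses 12 of the 46 arms were called, 6 higher and 6 lower in time course 2, beside 33.1% of all 475. The higher ones were miR-212 5p, miR-184 3p (2.15 ± 0.57), miR-204 5p (2.17 ± 0.57), both arms of miR-335 (2.15 ± 0.73 for 3p and 1.72 ± 0.49 for 5p) and miR-9 3p (1.47 ± 0.52). The lower ones were miR-134 5p (-2.17 ± 0.49), miR-138 5p (-1.78 ± 0.45), miR-181a 3p (-2.05 ± 0.48), miR-181c 5p (-4.09 ± 0.59), miR-22 3p (-1.63 ± 0.52) and miR-381 5p (-1.66 ± 0.44), all as log2 fold changes ± SE by edgeR.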

How the data were processed

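Per the labels and the study's methods, the authors size-selected hippocampal RNA on a gel, ligated adapters, sequenced it on an Illumina instrument and deposited, for each library, trimmed tags with their raw counts, whole numbers without normalization. The study processed reads with the miR-Intess pipeline, which removed reads with no or short inserts or without the 3′ adapter, and mapped them to an NCBI mouse assembly earlier than GRCm38. Versions are not given in the sources used here. The deposited tags carry no coordinates. Tags were matched here to the GENCODE vM21 (GRCm38) hairpins. A tag matching several miRNAs was divided between them, and the arm was set by the tag's centre. Tags centred between the arms were counted as loops, a choice made after the tags were seen.

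Counts were tested in R 4.3.3 with edgeR 4.0.16 (TMM, quasi-likelihood, 6 groups, all 12 libraries, at least 10 counts in 2 libraries, Benjamini-Hochberg at 0.05). DESeq2 1.42.0 was an alternative. The standard error is the absolute log2 fold change divided by the square root of F. Single values were compared by exact permutation, either over 64 sign flips of the pairs or over 36 choices of the untreated library in each course. Scripts were tested on simulated data. The simulated counts for edgeR held no difference between the time courses, so the main fit was not checked under such a difference. Other alternatives were size factors, total-count scaling, filters, matching of the first 18 nt, tags of at least 20 nt, the time course as a term, and leaving out each library. Wilson intervals are at 95%, and a count of 0 allows up to 3 counts.

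The study states in its results that the replicate number marks the time course. For NT the sources differ: the study lists more known miRNA reads for NT-1 than for NT-2, while here NT replicate 2 held more. Counts matched by their first 18 nt were 1198935 in NT replicate 1 and 4918772 in NT replicate 2. At the other times both sources have more in number 2. The deposited labels were used throughout, and the effect of exchanging the NT libraries was not tested. Deviations from the group means of same-numbered libraries correlated with r of 0.322 to 0.786 (mean 0.524) over 15 pairs of time points, so the numbers pair the libraries. The replicates were separate mice. The counts of all 6 replicate pairs differed by a chi-square test. That test treats reads as independent molecules, which they are not, so it cannot show how far the mice differed.

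The arms named are the 4 arms of miR-132 and miR-212, the arms next to them by mean level, the 5 most alike to each leading arm, and those of the list of activity-linked miRNAs that passed the threshold, with miR-134 and miR-124. The members and lists were chosen with earlier results of these data known.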

Additional observations from a re-analysis of the deposited data

Results flagged for a closer look

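No group of the study holds 4 or more libraries, so the 6 libraries of each time course, which are 6 different time points, were searched for 1 library far from the rest by Dixon's test at the 95% level. Of 38 sets of values searched, 8 had such a library. About 1.9 would be expected if the sets were independent and the libraries of a set alike. Neither is so, since the libraries are different time points and several sets share the same counts. The 8 can therefore not be weighed against that number. The miR-132 loop stood out at 1 h in both time courses, at 0.00705% of miRNA counts in time course 1 and 0.000994% in time course 2, and as 3.97% of miR-132 counts in time course 2.

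The NT library of time course 1, the one with short tags, stood out for miR-212 3p (0.00871% of miRNA counts) and for the 5p share of miR-212 (82.3%). The part of its short tags in these values was not tested. In time course 2 the 6 h library, the shallowest in total reads, had the lowest 5p share of miR-212 (91.3%) and the lowest share of miR-132 5p at position 6 (56.6%). The NT library of time course 2 had the lowest share of miR-212 5p at position 16 in its time course (94.6%).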

How the results depend on the processing

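Of 72 values, 1011 recomputations kept 934 on the same side of the threshold with the same direction. No arm of miR-132 or miR-212, nor the loop, was called after ECS in any of them. DESeq2 called 1 arm or loop at 0.5 h, 2 at 3 h, 1 over all times and 1 between late and early times. With the replicate block (the time course as a term) DESeq2 called 2, 5 and 3 at 0.5, 3 and 6 h, 1 over all times and 1 between late and early times, and edgeR 0 in each. Without the filter on low counts edgeR called 1 at 3 h and 6 over all times. With at least 10 counts in every library, 85 of the 213 arms left were called between the time courses. Leaving out 1 library gave 96 to 157 calls between the time courses and 0 to 1 over all times.

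Some log2 fold changes near 0 turned. miR-132 3p at 1 h became 0.15 with total-count scaling, 0.10 with the first 18 nt, 0.053 with the replicate block, 0.35 with loop tags counted on the 3p arm and 0.41 with both (the last 2 chosen after seeing the data). With total-count scaling miR-132 3p between the time courses became -0.030 and miR-212 3p between late and early times -0.0094. miR-212 3p between the time courses was called at 1.14 by DESeq2 and 1.61 with the first 18 nt. The replicate block changed no other call. Leaving out 1 library gave, at 1 h, -0.50 to 0.48 for miR-132 3p, -0.15 to 0.74 for miR-132 5p and -0.89 to 3.08 for miR-212 5p. Over all times it gave 0.13 (without NT of time course 1) to 2.40 (without NT of time course 2) for miR-212 5p, 0.0025 to 0.71 for miR-132 3p (the same 2 libraries), -1.07 (without 6 h of time course 2) to -0.39 (without NT of time course 1) for miR-212 3p, -0.64 to 0.55 for miR-132 5p and -1.42 to 2.48 for the loop, the last without NT of time course 1. Between late and early times it gave -0.39 to 0.11 for miR-132 5p, -0.59 to 1.12 for miR-212 3p and -1.72 to 0.35 for miR-212 5p, and between the time courses 0.93 to 1.48 for miR-212 3p. The causes were not tested.

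With tags of 20 nt or more, second minus first time course became -3.92 points for the 5p share of miR-132, 1.81 for the log2 ratio of miR-212 to miR-132, 0.332 nt for the length of miR-132 5p and -0.0660 nt for that of miR-132 3p. With the first 18 nt the lengths of miR-132 3p and miR-212 3p differed by 1.03 and 1.64 nt, with an exact permutation p of 0.0312 each. After ECS minus NT, tags of 20 nt or more gave 8.49 points for the 5p share of miR-132, 0.75 for its log2 percent, 12.3 and 0.0215 points for the leading starts of miR-132 5p and 3p, and -0.0127 nt for miR-212 5p length. Leaving out 1 library gave -9.55 to 1.11, -0.61 to 0.12, -14.1 to 1.56 and -15.9 to 9.75 for the first 4 of these, 0.40 to 0.99 for the log2 ratio, -1.83 to 2.47 points for the leading start of miR-212 5p, and 0.0562 to 0.892 nt and 0.144 to 1.13 nt for the lengths of miR-132 5p and miR-212 3p. Leaving out a pair gave -0.0483 to 0.133 nt for miR-132 3p length and -0.956 to 1.72 points for the leading start of miR-212 3p between the time courses, where 5 pairs cannot reach the threshold.

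Mean levels depend on the total. Without the 10 most abundant arms they were 0.0552% (miR-132 5p), 0.0205% (miR-132 3p), 0.390% (miR-212 5p) and 0.0114% (miR-212 3p), as a share of accepted reads 0.00704% and 0.00285% for miR-132 5p and 3p, and with the first 18 nt 0.00910% for miR-132 3p. With TMM-normalized CPM r in time course 1 became -0.33 for miR-132 5p with miR-132 3p, -0.32 for miR-132 5p with miR-212 5p and -0.045 for the 3p arms. The scarcest arm had 6 counts in 1 library, which limits what its levels can show.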

Other observations

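A single count of the 12 libraries matched the opposite strand of either hairpin, a tag antisense to miR-212, against 61798 sense counts of the 2 miRNAs.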
